A study of Mus musculus with 4 samples.

Results

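The genes described here make, sense, take up, move and export cholesterol. They are 31 of the 21881 genes in the deposited table and were taken by symbol, with Msmo1 listed there under its older name Sc4mol: 19 enzymes of synthesis, 5 regulators, 4 genes of uptake and trafficking and 3 of export and storage. The cells were mesenchymal stem cells, fibroblast-like cells of adult bone marrow, from C57BL/6 mice. A pair of immortalised lines, clone 6 and clone 12, each grown from a single cell, carried floxed and intact Dicer (Dicer f/f, called Dicer WT). Each line was infected with the puromycin-resistance retrovirus pMMP-puro, either empty (vector) or coding for NR6A1 with Flag and HA tags. That gave 4 libraries of polyadenylated RNA, 2 per group, with both viruses in the same 2 lines. NR6A1, also called germ cell nuclear factor, is an orphan receptor known mainly as a repressor.

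Cells build cholesterol from acetyl-CoA through mevalonate, isoprenoid diphosphates, squalene and lanosterol. When sterol in the endoplasmic reticulum is low, SCAP carries the SREBP transcription factors to the Golgi, where they are cut and released to switch on nearly all genes of this route together. INSIG proteins hold SCAP back when sterol is plentiful, and surplus cholesterol is stored as ester or exported by ABC transporters under control of the LXR receptors. NF-Y, which binds the CCAAT box, is a known partner of the SREBPs at promoters of these genes.

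Promoter sequences are shown first because the CCAAT box recurs in them. Whether the box bears on the levels described below was not tested. RefSeq promoters of build GRCm38.p6, from 250 bases before to 50 after the start, matched 25 of the 31 genes by symbol. Fdps, Fdft1, Sqle, Stard4, Npc1 and Abcg1 had no match and are outside all promoter counts. The letters CCAAT, sought on both strands, were present for 22 of the 25 genes (88.0%) and for 43.9% of the 7901 tested genes with a promoter. Among the synthesis enzymes 15 of 16 held the box, and 14 of those 15 had one within 80 bases of the start. Each window below holds 1 box, read on the strand that spells CCAAT, with the box in capitals and 12 bases on each side. It is the box nearest to the start among those whose whole window lies before the start. Idi1, Mvk and Nsdhl also hold boxes closer to the start or after it. The windows of Idi1, Cyp51 and Msmo1 overlap an annotated exon of the same gene, so other annotated starts lie at or before them. The first 7 belong to genes that were lower with NR6A1 at an unadjusted limma p under 0.05. The last 3 belong to genes whose mean log2 difference lay within 0.1 of 0. The windows shown are a selection. Pmvk, Mvd and Insig1 were also lower at that p, with windows not shown, whose boxes lie 136, 27 and 216 bases before the start. Srebf1, Mylip and Soat1 also lay within 0.1 of 0, with boxes at 166, 67 and 30 bases.
Idi1 (chr13:8885549-8885577, minus strand): tgcccgggctcgCCAATcagctggaggca
Lss (chr10:76531531-76531559, minus strand): atgcgagctcggCCAATcagagcatcacc
Cyp51 (chr5:4104710-4104738, minus strand): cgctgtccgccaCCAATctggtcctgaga
Msmo1 (chr8:64733617-64733645, minus strand): gagtggggcggaCCAATtacgacaggcga
Nsdhl (chrX:72918489-72918517, minus strand): gcatgattttgcCCAATgaggctagtctt
Sc5d (chr9:42264308-42264336, plus strand): gcaggcagccggCCAATcagcagccggcg
Insig2 (chr1:121332602-121332630, minus strand): tcaccttccacaCCAATctatattaaaat
Mvk (chr5:114444207-114444235, plus strand): ttaatgtttgacCCAATctgtaaaggagc
Ggps1 (chr13:14063527-14063555, minus strand): cagtcttctaggCCAATcggtaaactgac
Srebf2 (chr15:82147122-82147150, minus strand): ggcttgcattagCCAATcggcgcgcgaag
In 14 of the 22 windows the base after the box was c, and in 5 the box was followed by cag. The same was not counted for boxes of other genes, so these counts are not read as particular to the cholesterol genes. The box was thus present both in genes that were lower with NR6A1 and in genes close to level.

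For 2 genes the 200 bases before the start are given whole, on the strand of the gene, with each box in capitals on whichever strand it lies (CCAAT or its reverse ATTGG). In its first listed promoter, shown here, Sc5d has 1 box close to the start and Insig2 has 3. Other listed promoters of Insig2 held a GC box and no CCAAT box. Which promoter these cells use was not tested.
Sc5d (chr9:42264301-42264500, minus strand): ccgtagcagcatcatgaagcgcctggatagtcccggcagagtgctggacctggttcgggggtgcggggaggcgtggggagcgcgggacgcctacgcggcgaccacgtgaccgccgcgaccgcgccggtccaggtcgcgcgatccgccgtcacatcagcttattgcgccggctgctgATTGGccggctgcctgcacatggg
Insig2 (chr1:121332590-121332789, minus strand): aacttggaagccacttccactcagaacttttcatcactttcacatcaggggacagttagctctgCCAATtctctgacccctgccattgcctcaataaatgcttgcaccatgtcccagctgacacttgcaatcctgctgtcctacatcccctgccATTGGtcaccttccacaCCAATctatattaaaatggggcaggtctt
Other motifs were sought in the same way. The sterol regulatory element TCACNCCAC occurred in Hmgcs1 alone, 1 of 25 genes, against 1.4% of tested genes. Only these letters within these windows were sought, so a gene without a match is not shown to lack such an element. The element TCAAGGTCA, which NR6A1 is known to bind, occurred in 0 of 25, against 0.3%. It is so rare that a count of 0 among 25 genes tells nothing about these genes. The E-box CACGTG occurred in 6 of 25 (Abca1, Dhcr7, Hsd17b7, Insig1, Sc5d and Scap), against 12.3%, and the GC box GGGCGG in 23 of 25, against 71.8%. A match is a string of letters in these windows and not a site shown to be bound.

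**Figure D1:**
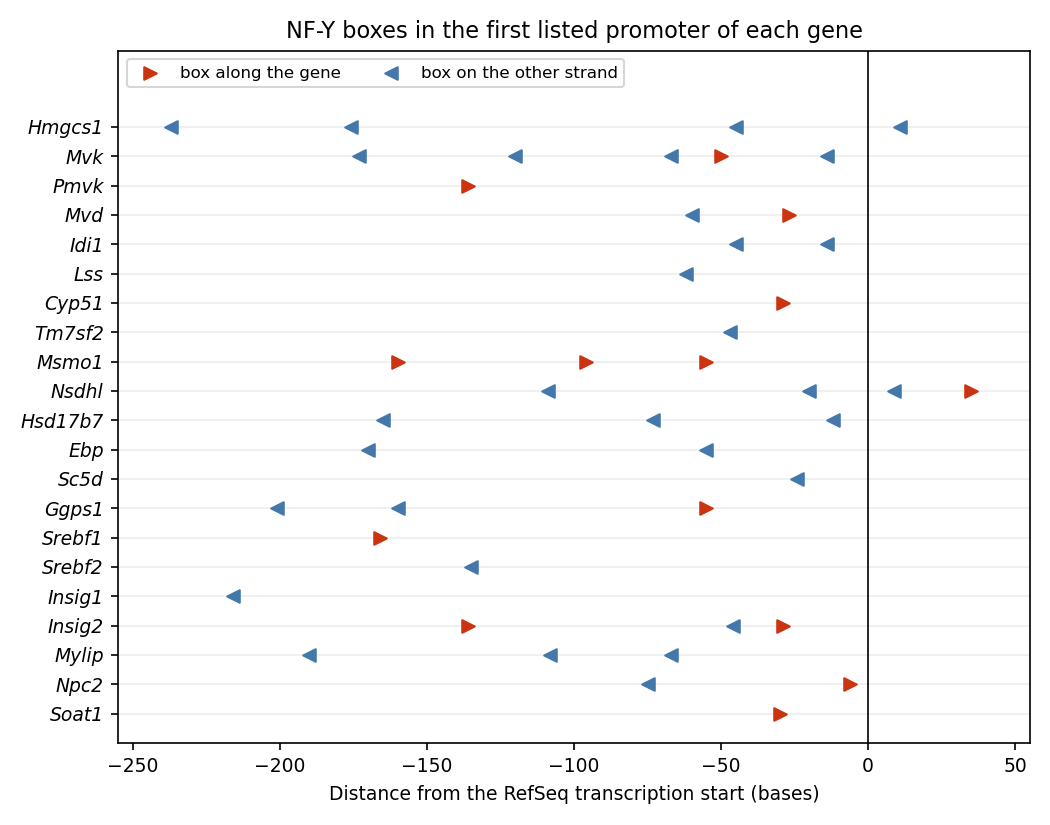
Position of each CCAAT box (the NF-Y motif) in the first listed RefSeq promoter of the 21 genes that hold one there; the horizontal axis is the distance in bases from the transcription start, and triangles give the strand. Most synthesis enzymes hold a box within 80 bases before the start.

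All values are FPKM, fragments normalised for transcript length and library size, as the authors deposited them. Differences are in log2(FPKM + 1), which understates the change of low genes, and were tested with limma, two-sided, with the clone as block. P-values were adjusted by Benjamini-Hochberg over 11346 genes, those whose mean reached 1 FPKM. The labels call the clones independent and name no repeat cultures. With the clone as block, differences in level between the lines are taken out of the residual spread. The p-values of this fit rest on how far the difference between viruses varied from clone to clone, combined with a variance estimated from all tested genes. That may not be the spread between repeat cultures, which was not measured. Depth, inferred from the steps between low values, was about 24150000 reads (clone 6) and 22800000 (clone 12) with vector, and 21050000 and 20500000 with NR6A1. Nr6a1 itself stood at 4.18 FPKM (clone 6) and 2.80 FPKM (clone 12) under empty virus, and at 783 and 598 under its own virus, and virus and endogenous reads were not told apart. Stromal markers were present except Thy1, which was at 0.0297 FPKM or listed at 0, and the blood and endothelial lists summed to at most 0.159 FPKM in any library. Below, 4 values are always given in the order vector clone 6, vector clone 12, NR6A1 clone 6, NR6A1 clone 12 unless they are named.

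Of the 31 genes, 29 passed the filter of 1 FPKM. Hmgcs1, which makes HMG-CoA, was listed at 0 in every library, which can be a failed estimate and is not read as a level. Abca1 lay below the filter. No gene of the 29 passed the adjusted threshold of 0.05, where 4 of all 11346 genes did (0.0353%). Among the 11149 tested genes other than short RNA genes, 1 passed in this fit, Nr6a1 itself. The lowest adjusted limma p of the 29 was 0.235, for Msmo1. At an unadjusted limma p under 0.05 stood 14 of the 29, all lower with NR6A1, against 8.48% of all genes in either direction and 5.01% in that direction. In both clones 22 of the 29 were lower, against 29.4% of all genes, and 2 were higher, against 28.9%. Both NR6A1 libraries lay below both vector libraries for 7 of the 29, against 10.7% of all genes, and above them for 2, against 9.68%. The median difference of the 29 was -0.21 (-0.21 in clone 6 and -0.20 in clone 12), and that of all genes tested was 0.00098. Across the 29 genes the differences in the 2 clones correlated with r = 0.658, and across the 11149 tested genes other than short RNA genes with 0.399. Genes are not independent replicates, and no p is attached to these values.

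**Figure D2:**
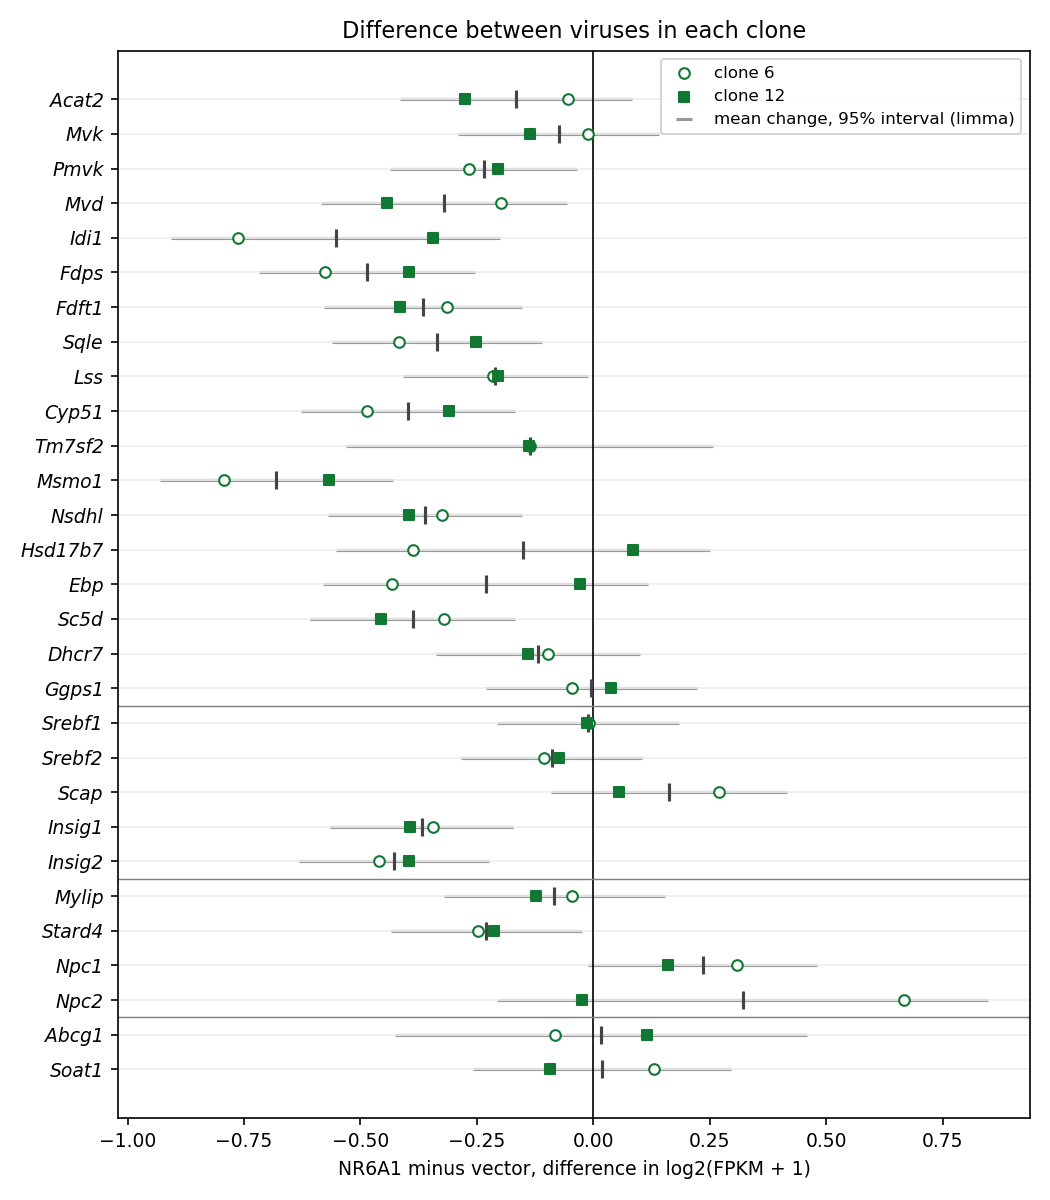
Difference between NR6A1 and vector in log2(FPKM + 1) for the 29 tested genes, with clone 6 (open circles), clone 12 (filled squares), their mean (tick) and its 95% interval from limma (bar). Msmo1, Idi1 and Fdps lie farthest to the left, and Npc1, Scap and, in clone 6, Npc2 lie to the right of 0.

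The 19 enzymes of synthesis held most of the pattern. Of 18 tested, 16 were lower with NR6A1 in both clones, against 29.4% of all genes. None was higher in both, against 28.9%. The median difference of the 18 was -0.28 (-0.32 in clone 6 and -0.26 in clone 12). Unadjusted limma p was under 0.05 for 11 of the 18, all lower, against 5.01% of all genes in that direction. Summed over the 18 enzymes other than Hmgcs1, the level was 912 FPKM in the vector and 677 in the NR6A1 library of clone 6, which is 25.8% lower. In clone 12 the sums were 1183 and 936.5 FPKM, which is 20.9% lower. The vector library of clone 6 and the NR6A1 library of clone 12 thus had nearly the same summed level, so the 2 groups overlap unless the clones are compared within themselves.

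The first steps lead from acetyl-CoA to isopentenyl diphosphate. Acat2, which joins 2 acetyl-CoA units, was at 62.2 FPKM with vector and 59.8 with NR6A1 in clone 6, and at 100.6 and 82.9 in clone 12. Its difference was near 0 in clone 6 (-0.05) and larger in clone 12 (-0.28). Mvk, mevalonate kinase, was at 42.1, 41.3, 41.7 and 37.5 FPKM, with no library far from the others. The next kinase of the route, Pmvk, was at 48.5 and 53.1 FPKM with vector, against 40.1 and 46.0 with NR6A1, a difference of -0.24 ± 0.07 (SE), and the groups did not overlap. Mvd, the decarboxylase that ends this section, was at 28.02 and 46.7 against 24.3 and 34.1 FPKM. Its groups overlapped because clone 12 stood above clone 6 under both viruses, while within each clone the NR6A1 library was lower (difference -0.32 ± 0.09). In each clone all 4 tested genes of this section were lower, and their median was -0.20. Of all genes 29.4% were lower in both clones.

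The isoprenoid section held the larger differences. Idi1, the isomerase that makes dimethylallyl diphosphate, averaged 102.5 ± 14.4 FPKM under vector, against 71.3 ± 24.4 under NR6A1 (SD, n = 2). The NR6A1 library of clone 6, at 54.0 FPKM, stood apart below the other 3, which ran from 88.5 to 113 FPKM. In ratio, NR6A1 over vector was 0.585 in clone 6 and 0.786 in clone 12 (log2 difference -0.55 ± 0.13, limma adjusted p = 0.437). Fdps, which makes farnesyl diphosphate, the branch point to sterols and to protein prenylation, had the highest mean over the 4 libraries of all 31 genes, though Srebf2 stood above it in NR6A1 clone 6 (103.5 and 101.5 FPKM). Its ratio of NR6A1 to vector was 0.669 in clone 6 and 0.758 in clone 12 (-0.49 ± 0.08, limma adjusted p = 0.319). Ggps1 takes farnesyl diphosphate away from sterols towards geranylgeranyl diphosphate. It was at 12.6, 14.7, 12.2 and 15.1 FPKM, and its difference was -0.0045 with a 95% interval from -0.23 to 0.22. The 2 clones differed in sign for Ggps1, while the 2 enzymes before the branch were lower in both.

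Squalene and lanosterol are made by Fdft1, Sqle and Lss, and all 3 were lower in both clones, against 29.4% of all genes. Fdft1, squalene synthase, was at 30.9 and 35.0 FPKM with vector, against 24.6 and 25.99 with NR6A1. The groups did not overlap, and both clones gave a like difference (-0.32 and -0.42, mean -0.37 ± 0.08). Sqle, squalene epoxidase, had ratios of 0.746 in clone 6 and 0.838 in clone 12 (-0.34 ± 0.08). Lss, the cyclase that forms lanosterol, was at 36.7 and 38.7 against 31.5 and 33.4 FPKM, with a difference of -0.21 in each clone.

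After lanosterol, 7 of 8 enzymes were lower in both clones, against 29.4% of all genes. Msmo1, the C4 methyl oxidase, was at 110.1 FPKM with vector and 63.1 with NR6A1 in clone 6, and at 170.5 and 115 in clone 12. Within each clone the NR6A1 library was clearly lower, at ratios of 0.573 and 0.673, and the difference of -0.68 ± 0.09 (95% interval -0.93 to -0.43) was the lowest of the 29 genes. Nsdhl, which removes the C4 carboxyl group that Msmo1 forms, was at 23.0 and 37.9 against 18.2 and 28.5 FPKM (-0.36 ± 0.07). Cyp51, the C14 demethylase, was at 66.4 and 80.3 against 47.1 and 64.6 FPKM, and its groups did not overlap (-0.40 ± 0.08).

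Sc5d, the lathosterol oxidase, was at 32.1 and 56.2 FPKM with vector, against 25.5 and 40.7 with NR6A1 (-0.39 ± 0.08). Clone 12 exceeded clone 6 under both viruses, and NR6A1 was lower in each. Ebp, the sterol isomerase, was at 42.1 and 37.3 against 30.9 and 36.5 FPKM, so that nearly all of its difference came from clone 6 (-0.43, and -0.03 in clone 12). Hsd17b7, the C3 ketoreductase, was lower with NR6A1 in clone 6 (13.7 and 10.3 FPKM) and not in clone 12 (11.8 and 12.6). The reductases Dhcr7, at 13.9, 16.2, 12.9 and 14.6 FPKM, and Tm7sf2, at 2.85, 2.10, 2.51 and 1.82, differed by -0.12 ± 0.08 and -0.14 ± 0.14. Their 95% intervals included 0, and that of Tm7sf2 reached from -0.53 to 0.26. The lowest library for 16 of the 18 enzymes was NR6A1 in clone 6, which was the lowest library for 25% of all genes. The highest for 13 of the 18 was vector in clone 12, against 31.4% of all genes.

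**Figure D3:**
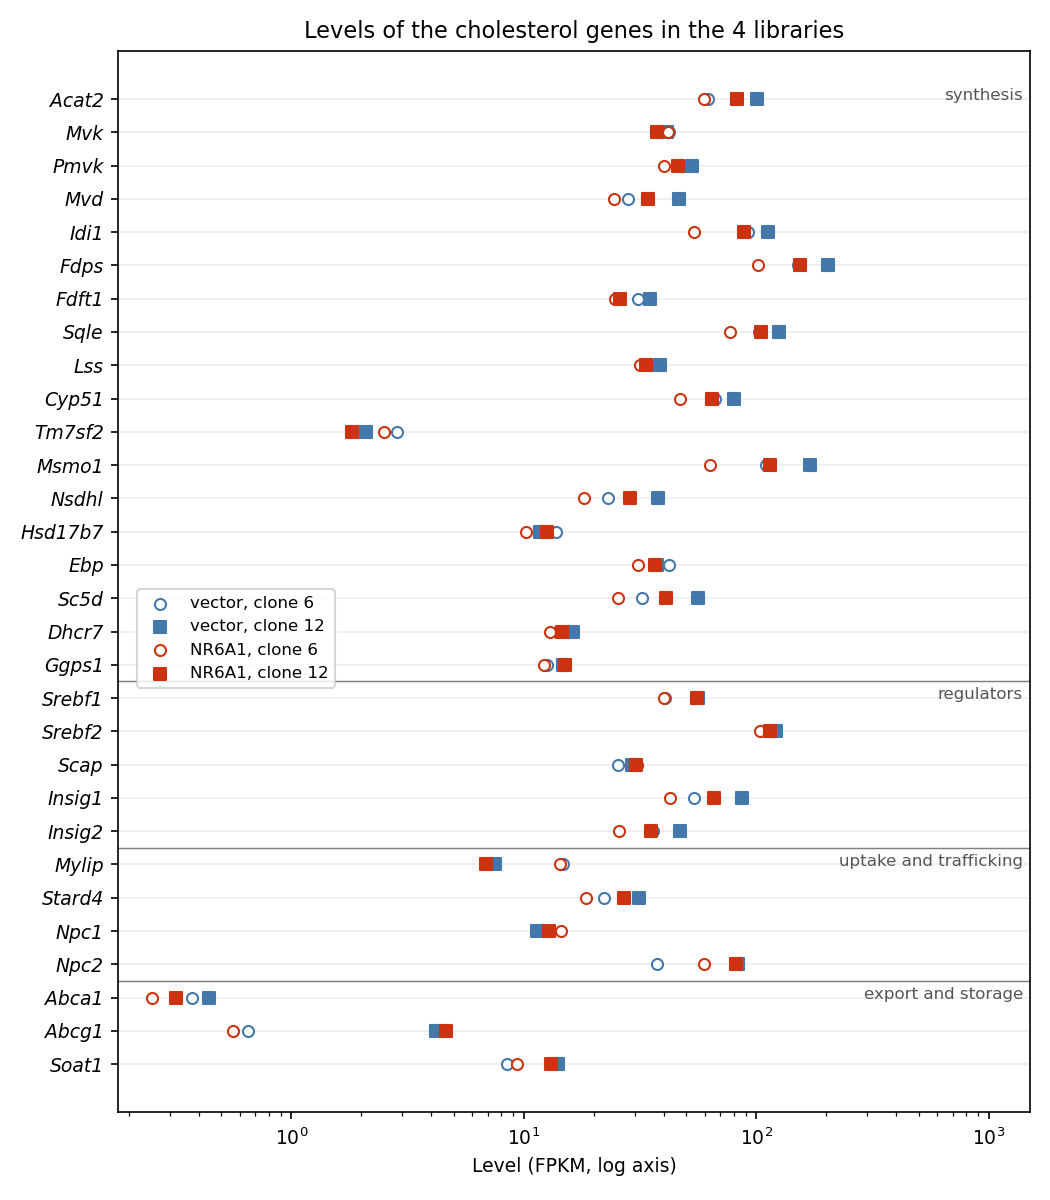
Level in FPKM on a log axis of the 30 genes above 0 in each library, by role (grey lines); blue marks vector and red NR6A1, open circles clone 6 and filled squares clone 12. For most enzymes the red symbol lies to the left of the blue symbol of the same shape, while Srebf1, Ggps1 and Soat1 show little distance between viruses within a clone.

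Among the regulators, the 2 INSIG genes were lower with NR6A1 and the SREBP genes were nearly level. Insig1, itself a classical SREBP target, was at 54.2 and 86.4 FPKM with vector, against 42.5 and 65.5 with NR6A1 (-0.37 ± 0.07, limma adjusted p = 0.353). Insig2, the paralogue known to be less dependent on SREBP, was at 35.8 and 46.8 against 25.7 and 35.3 FPKM (-0.43 ± 0.07, limma adjusted p = 0.319). Both were lower in each clone by a like amount, at ratios from 0.719 to 0.784, and the Insig2 groups did not overlap. Srebf2, the main factor for cholesterol genes, had a difference of -0.09 with a 95% interval from -0.28 to 0.10. Srebf1, whose products act more on fatty acid genes, was at 40.5 and 56.1 FPKM with vector, against 40.3 and 55.5 with NR6A1, a difference of -0.01 (95% interval -0.21 to 0.18). In ratio both SREBP genes stood between 0.929 and 0.993 of the vector level in each clone. Scap, the escort of the SREBPs, was at 25.3 and 29.3 against 30.7 and 30.5 FPKM. It lay above both vector libraries in both NR6A1 libraries, with most of the distance in clone 6 (0.27, and 0.05 in clone 12). FPKM measures transcript level, and cleavage of the SREBP proteins was not measured.

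Uptake and trafficking genes did not share one direction. Stard4, a carrier of cholesterol between membranes and a known SREBP2 target, was at 22.1 and 31.4 FPKM with vector, against 18.5 and 27.0 with NR6A1 (-0.23 ± 0.07). It was lower in both clones by 16.5% and 14.1%. Mylip, the ubiquitin ligase that removes lipoprotein receptors and is driven by LXR, was at 14.7, 7.54, 14.3 and 6.85 FPKM, a pattern set by clone and not by virus. Npc1, the lysosomal membrane protein that passes cholesterol out of the lysosome, was at 11.5 and 11.4 FPKM with vector, against 14.4 and 12.8 with NR6A1. Both NR6A1 libraries lay above both vector libraries (0.23 ± 0.09, 95% interval -0.01 to 0.48). Npc2, its soluble partner, was at 37.3 FPKM with vector and 59.8 with NR6A1 in clone 6, and at 83.2 and 81.8 in clone 12. It was thus 60.3% higher in clone 6 and level in clone 12.

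Export and storage genes were few, and the exporters Abca1 and, in clone 6, Abcg1 were low. Abca1, which loads cholesterol onto lipid-poor apolipoprotein, was at 0.374 and 0.444 FPKM with vector, against 0.251 and 0.318 with NR6A1. Taken over its longest annotated transcript, these values stand for about 91, 102, 53 and 66 reads. It lay below the filter and was not tested in the main fit, although both NR6A1 values were lower than both vector values. Abcg1, the partner exporter to larger lipoproteins, was at 0.650 and 0.559 FPKM in clone 6 and at 4.20 and 4.63 in clone 12 (vector first). It passed the filter through clone 12 alone. Soat1, which esterifies cholesterol for storage, was at 8.43, 14.1, 9.32 and 13.1 FPKM, and its difference between viruses was 0.02 (95% interval -0.26 to 0.30).

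**Figure D4:**
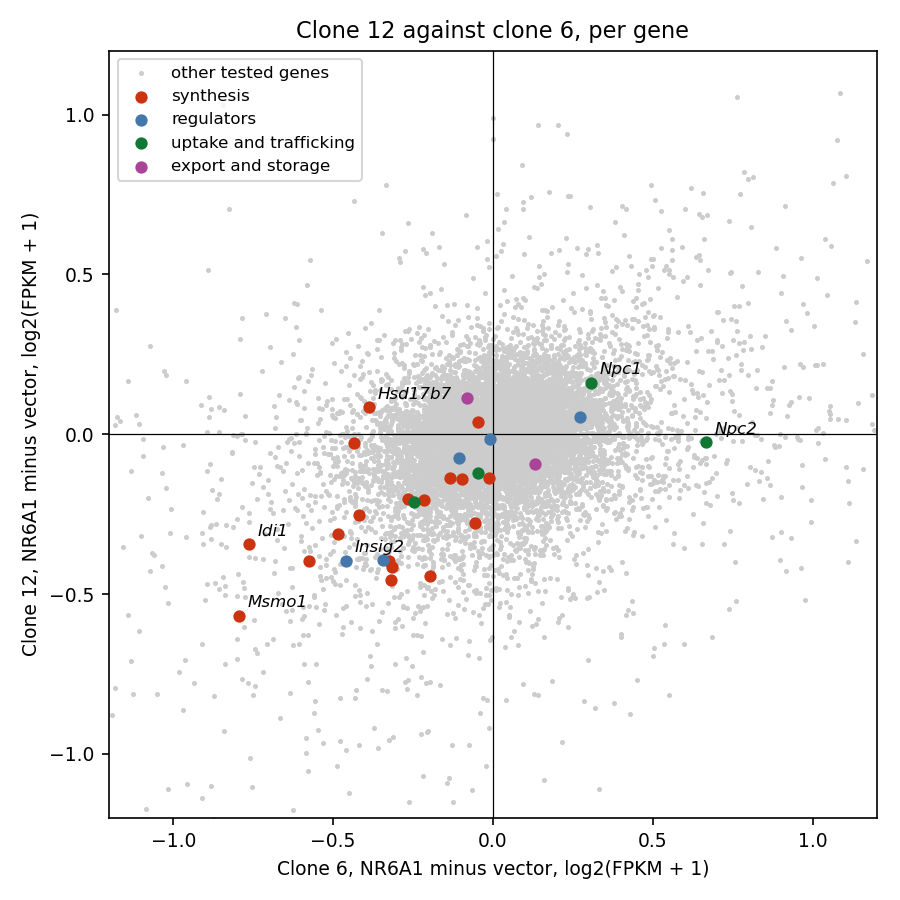
Difference between NR6A1 and vector in clone 12 against that in clone 6, in log2(FPKM + 1), for the 29 cholesterol genes (coloured by role) and 11120 other tested genes without short RNA genes (grey; 195 lie outside the axes, which end at 1.2). Most synthesis genes lie in the lower left corner, where both clones were lower with NR6A1, and Npc2 lies far to the right near the zero line of clone 12.

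The lines themselves differed in these genes. In the same fit 13 of the 29 passed at an adjusted limma p under 0.05 for clone 12 against clone 6, against 21.9% of all genes. Of these 12 were higher in clone 12, against 11.5% of all genes, and 1 was higher in clone 6, against 10.5%. The 12 include Abcg1, which passed the filter only through clone 12, where it is high, so that nothing is read from its call. The larger differences among the other genes higher in clone 12 were those of Msmo1 (0.74 ± 0.09, limma adjusted p = 0.0228), Sc5d (0.72 ± 0.08, adjusted p = 0.0204), Nsdhl (0.66 ± 0.07, adjusted p = 0.0210) and Insig1 (0.64 ± 0.07, adjusted p = 0.0205). Mylip was the gene higher in clone 6 (-0.92 ± 0.08, limma adjusted p = 0.0185). Srebf1 was also higher in clone 12 (0.46 ± 0.07, adjusted p = 0.0292), and Srebf2 differed by 0.13 ± 0.07 (adjusted p = 0.229). The count of 13 was 0 with no filter on low values, 7 with no variance trend and 5 without the clone block.

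Other genes of the pathway were taken from lists drawn up by role, and no gene of these lists passed the adjusted threshold for NR6A1 against vector. Many of the 11 fatty acid synthesis genes are SREBP targets. Of the 11, 6 were lower in both clones (29.4% of all genes) and 2 were higher in both (28.9%). At an unadjusted limma p under 0.05 stood 5 of the 11, 4 lower and 1 higher, against 8.48% of all genes in either direction. A like share of low p was thus not particular to the cholesterol genes. The median difference of the 11 was -0.11. With 1 library left out it was -0.20 without vector clone 6 and -0.015 without vector clone 12. It was 0.0084 without NR6A1 clone 6 and -0.26 without NR6A1 clone 12. Scd2, a stearoyl-CoA desaturase, was at 365 and 557 FPKM with vector, against 279.6 and 453 with NR6A1 (-0.34 ± 0.08), and its paralogue Scd1 at 91.8 and 131 against 79.5 and 104 (-0.27 ± 0.08). Acly, which supplies cytosolic acetyl-CoA, was at 83.95 and 101.4 against 77.2 and 84.6 FPKM, while the desaturase gene Fads1 was at 102.9 and 95.1 against 106 and 97.8. The 10 genes that use isoprenoids had a median of 0.02, with 1 lower in both clones (29.4% of all genes) and 4 higher (28.9%). Their most abundant members were Rabggtb, a subunit of Rab geranylgeranyl transferase, at 115 and 137 against 111 and 130.4 FPKM, and Fnta, a subunit of farnesyl transferase, at 76.6 and 70.3 against 67.0 and 74.4.

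The 8 genes of SREBP processing and the LXR factors had a median of 0.0050. Of the 8, 1 was lower in both clones (29.4% of all genes) and 3 were higher (28.9%). Mbtps1, the first protease to cut the SREBPs, was at 67.6, 69.3, 66.3 and 71.3 FPKM. Nr1h2, LXR beta, was at 30.8 and 29.6 FPKM with vector, against 37.0 and 33.1 with NR6A1. Of 16 other sterol transport and oxysterol genes 14 were tested. Of the 14, 3 were lower in both clones (29.4% of all genes) and 7 were higher (28.9%). The median of the 14 was 0.06. With 1 library left out, the median of this list ran from -0.029 to 0.10, that of the isoprenoid list from 0.00015 to 0.06 and that of the SREBP processing list from -0.032 to 0.07. Lrp1, a large endocytic receptor of lipoproteins, was at 133 and 73.9 FPKM with vector, against 181 and 97.7 with NR6A1 (0.42 ± 0.07, limma adjusted p = 0.315). Scarb1, a receptor for high-density lipoprotein, was at 76.0 and 86.1 against 91.4 and 91.4 FPKM.

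Of the markers of other cell types, 1 differed by a large amount between viruses in clone 6. Fabp4, an adipocyte fatty acid carrier, was at 285 and 79.4 FPKM with vector, against 129 and 73.3 with NR6A1 (-0.62 ± 0.27, limma adjusted p = 0.637), while the defining adipocyte genes Adipoq, Plin1 and Cidec did not exceed 0.319 FPKM in any library. The sum over these 4 markers ran from 79.4 to 286 FPKM with vector and from 73.3 to 130 with NR6A1. The 6 proliferation markers summed to 1010 and 969 FPKM with vector, against 967 and 910 with NR6A1. Of the steroidogenic markers only Star was above 0, at 0.985 to 1.58 FPKM, and Cyp11a1, Hsd3b1 and Cyp17a1 were listed at 0. The part of Fabp4, of proliferation or of depth, which was lower in both NR6A1 libraries, in the lower cholesterol genes was not tested. In bulk samples fewer cells that use a gene and less RNA per cell cannot be told apart.

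The pattern rests on comparing viruses within each clone. Without the clone block 1 of the 29 genes, Fdft1, kept an unadjusted limma p under 0.05, against 14 with it. With 1 library left out, which also removes the block, the median of the synthesis enzymes was -0.46 without vector clone 6, -0.18 without vector clone 12, -0.13 without NR6A1 clone 6 and -0.40 without NR6A1 clone 12.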

How the data were processed

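The authors deposited 1 FPKM value per gene and library for 4 libraries; the submitters' processing notes name Cufflinks 1.0.3, TopHat 1.2.0 and, as build, mm9. Gene models and strandedness: not given in the sources used here. Overlapping genes and close paralogues may therefore share reads. No counts were used. Depth was estimated as the number of reads that put most low values near whole reads, over 1818 genes with 1 annotated transcript: the share of values no farther than 0.1 from a whole read was 50.3% to 53.4% (chance gives 20%), too low for a count test. The members, lists and alternatives were chosen with earlier results of these data known.

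log2(FPKM + 1) was fitted with limma 3.58.1 in R 4.3.3 (mean-variance trend, virus and clone as terms, 1 residual and 2.9 prior degrees of freedom). The block follows the labels' protocols, since both viruses went into the same lines; the difference between clones correlated across genes between viruses with r = 0.628 (0.873 without short RNA genes). The fit was also run on simulated data, whose changes were larger than the mean difference of any cholesterol gene here. That run therefore does not bear on differences of this size. All members were named, and up to 4 of the most abundant genes of each other list. Alternatives were quantile or upper quartile scaling, pseudocounts of 0.1 and 5, a minimum of 5 FPKM or none, no trend, a robust prior, no replicate block, removal of 197 short RNA genes, each library left out, and an adjusted p of 0.1. Promoters came from RefSeq (GRCm38.p6), whose coordinates are not those of the mm9 files, and transcript lengths from GENCODE M21.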

Additional observations from a re-analysis of the deposited data

Results flagged for a closer look

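Of the 29 genes, 5 differed between viruses in opposite directions in the 2 clones, with 1 library per virus and clone, so the difference between the clones was not tested. Npc2 had a log2 difference of 0.67 in clone 6 and -0.025 in clone 12, and Hsd17b7 one of -0.39 and 0.085. For Soat1 the values were 0.13 and -0.093, for Abcg1 -0.082 and 0.11, and for Ggps1 -0.046 and 0.037. Among all 11346 genes tested 4661 had opposite directions in the 2 clones.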

How the results depend on the processing

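No cholesterol gene passed the adjusted threshold of 0.05 for NR6A1 under any alternative, and none passed 0.1 in the main fit. The adjusted limma p of Msmo1 lay under 0.1 without short RNA genes (0.0675, the lowest) and with a robust prior (0.0852). It ran up to 1 elsewhere. Over the 10 alternatives with 4 libraries, 287 of 288 gene values kept their direction; the other was Abcg1, at -0.024 with a pseudocount of 0.1. The count of all genes past the threshold was 4, and 7 with a pseudocount of 5, 2 with no filter, 38 with a robust prior, 51 without short RNA genes, 25 at an adjusted p of 0.1 and 0 with any 1 library left out. Without the replicate block 1 of the 29 genes had an unadjusted p under 0.05 in place of 14. The median of the 29 genes was -0.19 with a pseudocount of 5, -0.19 with no filter and -0.23 with a filter at 5 FPKM; that of the synthesis enzymes was -0.32 with that filter. For clone 12 against clone 6 the count of 13 became 0 with no filter, 7 with no trend and 5 with no replicate block. Leaving out 1 library, which ends the pairing of the clones, gave 0 to 3 such calls, a median from -0.35 to -0.037 for the 29 genes and from -0.46 to -0.13 for the synthesis enzymes. In those fits 17 genes kept their direction and 12 did not: Acat2 (-0.51 to 0.18), Mvk (-0.15 to 0.0014), Mvd (-0.68 to 0.038), Tm7sf2 (-0.29 to 0.021), Sc5d (-0.78 to 0.0067), Ggps1 (-0.15 to 0.14), Srebf1 (-0.24 to 0.22), Mylip (-0.56 to 0.40), Stard4 (-0.49 to 0.031), Npc2 (-0.25 to 0.89), Abcg1 (-0.91 to 0.94) and Soat1 (-0.32 to 0.36). The cause of these shifts was not tested beyond the loss of the block.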

Other observations

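Ch25h, which makes the oxysterol 25-hydroxycholesterol, differed between the lines by more than any of the 29 cholesterol genes. It was at 62.8 FPKM with vector and 56.0 with NR6A1 in clone 6, and at 1.32 and 1.14 in clone 12, a difference of -4.76 ± 0.08 (SE) between clone 12 and clone 6 (limma adjusted p = 0.00158). Between viruses it differed by -0.14 ± 0.08. Hsd3b7, an enzyme of bile acid synthesis from oxysterols, was higher in clone 12 by 0.93 ± 0.11 (limma adjusted p = 0.0231), and Nr1h3, LXR alpha, was lower there by 1.01 on the log2 scale (adjusted p = 0.0227). Cyp7b1 and Vldlr lay below the filter. These genes were chosen after their values were seen.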
